A study of Homo sapiens with 6 samples.

Results

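The genes described here are abundant non-coding RNAs that cells make as the RNA parts of ribonucleoproteins: RPPH1 (the RNA of RNase P), RMRP (the RNA of RNase MRP), TERC (the telomerase template), RN7SK and 6 small Cajal body RNAs (scaRNAs), SCARNA5, SCARNA6, SCARNA9, SCARNA10, SCARNA12 and SCARNA13. They were selected by name from the table of TPM (reads divided by gene length and scaled so that each library sums to the same total), with the levels of these libraries known. Of the 10 names, 9 had a row among the 17471 genes of the table. No row carries the name RN7SK, and that RNA was not analysed here. All 9 passed the filter of at least 0.5 TPM in at least 3 libraries, which left 13163 genes to test.

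The libraries came from AN3CA, an established endometrial cancer cell line with PAX2 expression. The 3 shEV libraries (genotype given as WT) came from cells transduced with the empty hairpin lentivirus, and the 3 shPAX2 libraries (genotype given as PAX2 KD) from cells carrying a hairpin against PAX2, a developmental transcription factor. Cells of both groups were selected with puromycin, and the knockdown rested on 1 hairpin. Elsewhere in the study's text this control is described as scrambled. The study states in general that experiments in culture were repeated, but not whether these libraries are such repeats. The p-values therefore measure the spread between these libraries, which may be technical.

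PAX2 fell from 4.03, 3.66 and 2.74 TPM in shEV to 0.916, 0.723 and 1.17 TPM in shPAX2, a log2 fold change of -1.47 (adjusted p = 0.000294). The recovered reads ran from 10730909 to 18221859 in the shEV libraries and from 19422615 to 29405787 in the shPAX2 libraries. Every shPAX2 library was thus deeper than every shEV library, and depth cannot be told apart from the group. The cells are labelled epithelial, yet EPCAM, CDH1, KRT8, KRT19 and MUC1 stayed at or below 0.387 TPM in every library. KRT18, the other of the 6 epithelial markers, stood at 10.2 to 12.9 TPM in shEV and 11.9 to 17.5 TPM in shPAX2. In these bulk libraries, fewer cells making an RNA and less of it per cell cannot be told apart.

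RNase P trims the leaders of precursor tRNAs, and RNase MRP, which shares most of its protein subunits, cuts precursor ribosomal RNA. RNA polymerase III transcribes both RNA components from promoters that lie entirely upstream of the RNA. Telomerase copies its template in TERC onto chromosome ends. The scaRNAs gather in Cajal bodies, where they guide the methylation (box C/D) and pseudouridylation (box H/ACA) of spliceosomal snRNAs, and most are cut from the introns of host genes.

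RPPH1 and PARP2 are a divergent pair. In RefSeq (GRCh38.p14) RPPH1 spans chr14:20343071-20343411, PARP2 begins at base 20343635 of chromosome 14, and 223 bases lie between them. The window of the RefSeq promoter table that reaches from 250 bases before the start of PARP2 to 50 after it therefore holds the first 27 bases of RPPH1, read on the minus strand. It is shown (chr14:20343385-20343684, plus strand) because RPPH1 and PARP2 are compared below. The first run of capitals is the RPPH1 end. The second run marks TATAA, which overlaps its own reverse complement TTATA and begins 26 bases beyond the RPPH1 end. The third run is ATGCAAAT, the octamer that POU2F1 is known to bind.
RPPH1 and PARP2: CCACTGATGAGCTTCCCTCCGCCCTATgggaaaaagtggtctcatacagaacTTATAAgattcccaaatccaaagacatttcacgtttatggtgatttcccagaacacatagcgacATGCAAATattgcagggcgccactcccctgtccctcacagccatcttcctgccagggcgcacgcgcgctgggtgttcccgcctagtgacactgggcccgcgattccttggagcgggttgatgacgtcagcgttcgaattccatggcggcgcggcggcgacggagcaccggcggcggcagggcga

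RMRP lies at chr9:35657751-35658014 on the minus strand of hg19 (GRCh37), 273 bases from the nearest coding gene, CCDC107. The same kind of window was read for RMRP from hg19 (chr9:35657965-35658264, minus strand). The first capitals are the octamer on the opposite strand, the next are TATAA, which ends 28 bases before the RNA, and the last run is the first 50 bases of the RNA.
RMRP: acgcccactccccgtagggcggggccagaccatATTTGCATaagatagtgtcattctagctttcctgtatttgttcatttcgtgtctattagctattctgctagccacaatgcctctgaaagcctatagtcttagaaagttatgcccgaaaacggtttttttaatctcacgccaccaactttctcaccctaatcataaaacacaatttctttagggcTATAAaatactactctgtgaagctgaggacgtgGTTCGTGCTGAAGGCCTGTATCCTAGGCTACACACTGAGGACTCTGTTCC
Among 35116 RefSeq promoter windows of the same length, 20.44% held TATAA and 1.77% held ATGCAAAT, both strands searched. These matches describe letters in the windows and not bound sites.

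RPPH1 and RMRP were the first and second of all genes by mean TPM. Together they took 12.7%, 14.2% and 12.9% of the library total in shEV replicates 1 to 3, and 15.6%, 13.3% and 13.3% in shPAX2 replicates 1 to 3. The other 7 members together took 0.161% to 0.255% of a library. Because TPM divides by length, the share of the recovered reads was much smaller. RPPH1 and RMRP held 1.92% to 2.20% of the reads in shEV and 2.06% to 2.49% in shPAX2. All 9 members took 13.5% ± 0.861 of the total in shEV and 14.3% ± 1.32 in shPAX2 (SD, n = 3 each), and these ranges overlapped. The members were chosen for levels such as these, so the shares are a description.

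**Figure D1:**
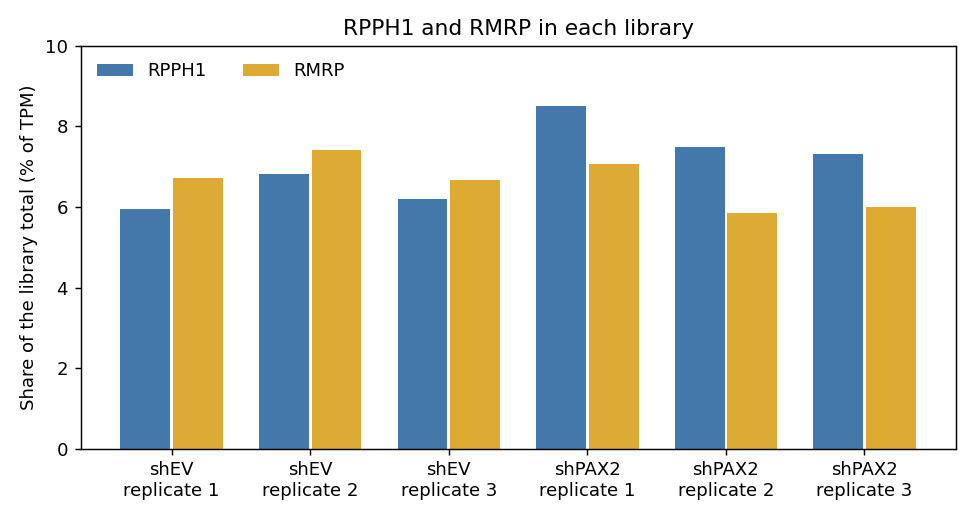
Share of the library total, in percent of TPM, taken by RPPH1 (blue) and RMRP (yellow) in each of the 6 libraries. RMRP stands above RPPH1 in each shEV library, and RPPH1 stands above RMRP in each shPAX2 library, with its highest share of 8.50% in shPAX2 replicate 1.

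In the whole table, 42.8% of the genes tested passed an adjusted p under 0.05 in limma, 12.2% higher and 30.5% lower in shPAX2, and 4.54% also had a log2 fold change of at least 1 in size. In 54.9% of tested genes the values of both groups were apart, with no overlap. Of the 9 members, 5 passed, with RPPH1 higher and SCARNA5, SCARNA6, SCARNA9 and SCARNA12 lower, and in the same 5 the groups did not overlap. That count is to be read against the shares of the whole table, and nothing about the members as a set rests on it. SCARNA9 and SCARNA5 also passed the fold threshold. The members' median log2 fold change was -0.25, beside -0.10 over all genes tested. That overall median moved to 0.0053 with median-of-ratios scaling, so small log2 changes depend on the scaling. The calls test against 0 on the TPM scale, and the changes are to be read beside -0.10 as well. Which scaling is right was not tested. The share of lower genes among all calls moved from 71.4% on the TPM scale to 47.4% with median-of-ratios scaling and 51.3% with quantile normalization. Since the members were chosen with these libraries known, their p-values describe the libraries and are no independent evidence for the choice.

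RPPH1 had 59482, 68275 and 62098 TPM in shEV (replicates 1 to 3) and 85040, 74801 and 73140 TPM in shPAX2 (replicates 1 to 3). All shPAX2 libraries were above all shEV libraries, and the lowest shPAX2 value lay close to the highest shEV value. The log2 fold change was 0.29 (SE 0.08, 95% interval 0.12 to 0.47, adjusted p = 0.0158). The call was lost without shEV replicate 1 (log2 fold change 0.25, adjusted p = 0.0521) and without shEV replicate 3 (0.28, adjusted p = 0.0605).

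RMRP stood at 67169, 74117 and 66717 TPM in shEV and at 70643, 58411 and 59981 TPM in shPAX2. The groups overlapped, because shPAX2 replicate 1 lay within the shEV range. The log2 fold change was -0.14 (SE 0.08, 95% interval -0.33 to 0.05, adjusted p = 0.202). It passed the threshold without shPAX2 replicate 1 (-0.23, adjusted p = 0.0200) and with quantile normalization (-0.22, adjusted p = 0.0109). Quantile normalization sets values by rank alone, and RPPH1 was there at 0.22 with the same adjusted p. That RMRP call therefore reflects the swapped order of the pair and is not a separate result. With median-of-ratios scaling RMRP was at -0.029 (adjusted p = 0.828), and leaving out replicate 2 gave -0.092 for shEV and -0.089 for shPAX2.

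The ratio of RPPH1 to RMRP within a library does not depend on how the library is scaled, though it does depend on the division by gene length. On the TPM scale it was 0.886, 0.921 and 0.931 in shEV and 1.20, 1.28 and 1.22 in shPAX2. Per length, RMRP was thus the higher of the pair in every shEV library and RPPH1 in every shPAX2 library. By reads, not divided by length, RPPH1 was the higher in all 6 libraries. The groups differed by a log2 difference of 0.44 in this ratio (0.41 to 0.45 with any single library left out). An exact permutation test, two-sided, returned p = 0.1, and no lower value is possible with 3 libraries in each group. This ratio was chosen after the values were seen.

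PARP2, the poly(ADP-ribose) polymerase gene across the promoter from RPPH1, stood at 69.2 to 74.6 TPM in shEV and 64.9 to 76.1 TPM in shPAX2 (log2 fold change -0.04, adjusted p = 0.681). The ratio of RPPH1 to PARP2 was 797, 987 and 857 in shEV and 1311, 1072 and 961 in shPAX2, and the groups overlapped. CCDC107, next to RMRP, had a log2 fold change of 0.02 (adjusted p = 0.892).

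The protein subunits that RNase P and RNase MRP mostly share were listed at 10 genes, all tested. Of these, 3 rose and none fell in limma, with 7 not past the threshold and a list median of 0.07. That count is to be read against the 12.2% of all tested genes that rose and the 30.5% that fell. The lowest of the list, POP1, was at -0.19 with an unadjusted p under 0.05, and voom on the recovered reads called it. With median-of-ratios scaling 5 of the list rose and none fell. RPP40 rose from 18.5 ± 0.973 to 32.1 ± 3.63 TPM (log2 fold change 0.77, adjusted p = 0.000215). RPP21 rose from 8.87 ± 0.244 to 12.9 ± 0.505 TPM (log2 fold change 0.52, adjusted p = 0.000620), and POP4 rose with a log2 fold change of 0.19 (adjusted p = 0.0289). The POP4 call was lost without replicate 2 or 3 of either group. RPP40 and RPP21 lie on chromosome 6, where the median log2 fold change was 0.39 over 634 tested genes and -0.11 over the other chromosomes, and the part of that shift in these genes was not tested.

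Of the 14 subunits and regulators of RNA polymerase III, the enzyme that transcribes RPPH1 and RMRP, 2 rose, 2 fell and 10 did not pass. Over all tested genes 12.2% rose and 30.5% fell. With median-of-ratios scaling the split of the list was 6 and 1, and with quantile normalization 4 and 2. Without shPAX2 replicate 1 it was 5 and 2. POLR1C (0.54, adjusted p = 0.00175), a subunit shared with RNA polymerase I and encoded on chromosome 6, and POLR3K (0.31, adjusted p = 0.0229) rose, the latter not without replicate 2 or 3 of either group. POLR3C (-0.30, adjusted p = 0.00496) and POLR3E (-0.27, adjusted p = 0.00684) fell, the latter not with median-of-ratios scaling. MAF1, the repressor of the enzyme, had a log2 fold change of -0.07 (adjusted p = 0.459).

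Of the 11 factors tested that act at or with such upstream promoters, 2 rose, 3 fell and 6 did not pass. With median-of-ratios scaling or quantile normalization 3 rose and 2 fell. The shares of all tested genes in the main fit were 12.2% higher and 30.5% lower. TBP, which binds the TATA element and is encoded on chromosome 6, rose from 32.0 ± 1.09 to 46.8 ± 1.90 TPM (log2 fold change 0.54, adjusted p = 0.000170). SNAPC5, a subunit of the snRNA-activating complex, rose by 0.29 on the log2 scale (adjusted p = 0.00905). SNAPC3, another subunit of that complex, fell with a log2 fold change of -0.37 (adjusted p = 0.00323). POU2F1, the octamer-binding factor, fell from 7.62 ± 0.559 to 5.67 ± 0.294 TPM (log2 fold change -0.39, adjusted p = 0.00869), and its call was lost with quantile normalization. BRF2, the initiation factor particular to these promoters, had a log2 fold change of 0.27 (adjusted p = 0.0757). It was called higher with median-of-ratios scaling, quantile normalization or voom, and without shEV replicate 1 or shPAX2 replicate 1.

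TERC lies at chr3:169482308-169482848 on the minus strand of hg19, 1861 bases from ACTRT3. The stretch from base 31 to base 70 of the annotated RNA is shown for its template, where CTAACCC begins at base 46 (1.1% of the RefSeq promoter windows hold these letters on the strand given).
TERC: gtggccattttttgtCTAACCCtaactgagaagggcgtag
TERC stood at 128, 132 and 123 TPM in shEV and at 134, 116 and 87.9 TPM in shPAX2. The shEV values lay close together, while the shPAX2 values reached from above to below them, and the log2 fold change was -0.20 (95% interval -0.55 to 0.14, adjusted p = 0.295). It was -0.038 without shPAX2 replicate 3, -0.34 without shPAX2 replicate 1 and -0.092 with median-of-ratios scaling, never past the threshold. ACTRT3 had a log2 fold change of 0.25 (adjusted p = 0.200) and was called higher with quantile normalization or without shPAX2 replicate 1. Of 10 tested genes for telomerase and the H/ACA core, 1 rose and none fell in limma or in voom. Lower at an unadjusted p under 0.05 was 1 gene of the list, SHQ1. Over all tested genes 12.2% rose and 30.5% fell. The list gene that rose was NHP2, an H/ACA core protein, from 325 ± 13.7 to 369 ± 20.6 TPM (log2 fold change 0.18, adjusted p = 0.0471). Its call was lost without any 1 library other than shPAX2 replicate 3. Without shPAX2 replicate 1, SHQ1 was called lower and 1 other gene of the list higher. TERT, the reverse transcriptase, stayed near 1 TPM, with means of 1.02 and 1.09 TPM. Of the 7 tested proteins that bind RN7SK or the kinase it holds, none passed the threshold in limma or in voom. In limma 42.8% of all tested genes passed. At an unadjusted p under 0.05 this list held HEXIM1, HEXIM2 and CDK9, each lower. MEPCE, at 0.14, was called higher with median-of-ratios scaling and without shPAX2 replicate 1, and HEXIM2 was called lower without shEV replicate 1.

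SCARNA9 showed the largest change among the 9 members. It is a box C/D RNA with 353 bases at chr11:93454679-93455031 (hg19, plus strand), in an intron of CEP295, which the table lists under its older name KIAA1731. The first and the last 140 bases of SCARNA9 are shown, since a related sequence on chromosome X (chrX:20154185-20154528, within EIF1AX) has 93.1% identity with it over 349 aligned bases. Capitals mark the bases that differ from, or lie outside, that alignment.
SCARNA9 first bases: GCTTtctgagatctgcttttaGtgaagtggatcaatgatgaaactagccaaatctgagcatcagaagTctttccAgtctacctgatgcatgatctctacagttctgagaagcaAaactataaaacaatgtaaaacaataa
SCARNA9 last bases: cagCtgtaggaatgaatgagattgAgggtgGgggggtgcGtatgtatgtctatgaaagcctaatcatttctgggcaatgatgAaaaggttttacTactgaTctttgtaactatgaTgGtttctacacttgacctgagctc
The letters TGATGA, the usual form of the C box, begin at bases 36 and 291 of the RNA (5.9% of the RefSeq promoter windows hold them on the strand given). None of the 279 windows of 75 bases had an exact copy elsewhere in the genome. The study's methods give this read length for another cell line, and that of the present libraries is not stated there.

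SCARNA9 stood at 165, 151 and 161 TPM in shEV and at 40.0, 37.6 and 35.7 TPM in shPAX2, from 312, 471 and 514 reads and from 216, 179 and 123 reads. The lowest shEV library was far above the highest shPAX2 library. The mean went from 159 ± 7.11 TPM down to 37.8 ± 2.14 TPM (SD, n = 3 each). This was a log2 fold change of -2.06 (SE 0.06, 95% interval -2.20 to -1.91, adjusted p = 1.52e-07). The exact permutation p was 0.1.

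Its host KIAA1731 had a log2 fold change of -0.12 (30.3 ± 0.979 to 27.8 ± 0.665 TPM, adjusted p = 0.111). The ratio of SCARNA9 to KIAA1731 was 5.50, 5.09 and 5.13 in shEV and 1.47, 1.36 and 1.25 in shPAX2, so every shPAX2 ratio lay below every shEV ratio. SCARNA9L, the row RefSeq names for the related gene, fell too. It stood at 72.8, 65.7 and 78.9 TPM in shEV and at 20.7, 26.6 and 30.6 TPM in shPAX2 (log2 fold change -1.48, adjusted p = 0.000356). The ratio of SCARNA9 to SCARNA9L was 2.04 to 2.30 in shEV and 1.17 to 1.94 in shPAX2. How reads were divided between these related RNAs is not given in the sources used here, so their separate values are uncertain.

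SCARNA5 and SCARNA6 are guides with both a C/D and an H/ACA domain and sit in introns of the same gene, ATG16L1, on the plus strand of chromosome 2 (hg19), at chr2:234184373-234184648 and chr2:234197322-234197586. Both are shown because they share a host and ends but not the size of their change. Capitals mark TGATGA and CTGA, the usual letters of the C and D boxes. CTGA is common, and 72.9% of the RefSeq promoter windows hold it on the strand given.
SCARNA5: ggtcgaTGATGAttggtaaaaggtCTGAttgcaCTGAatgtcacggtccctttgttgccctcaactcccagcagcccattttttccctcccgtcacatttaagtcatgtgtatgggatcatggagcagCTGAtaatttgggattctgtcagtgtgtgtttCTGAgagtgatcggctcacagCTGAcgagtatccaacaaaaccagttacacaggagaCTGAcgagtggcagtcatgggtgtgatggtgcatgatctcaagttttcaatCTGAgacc
SCARNA6: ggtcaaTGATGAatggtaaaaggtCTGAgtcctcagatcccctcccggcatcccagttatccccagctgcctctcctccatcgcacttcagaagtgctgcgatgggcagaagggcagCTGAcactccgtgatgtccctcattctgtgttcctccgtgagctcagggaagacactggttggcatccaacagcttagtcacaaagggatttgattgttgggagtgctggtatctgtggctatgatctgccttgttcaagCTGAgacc
Of their first 28 bases 26 were equal, and so were all of the last 8.

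SCARNA5 stood at 159, 193 and 233 TPM in shEV and at 83.2, 75.8 and 96.2 TPM in shPAX2. The shEV libraries were spread widely but all lay above the shPAX2 libraries, and the log2 fold change was -1.18 (SE 0.15, 95% interval -1.55 to -0.81, adjusted p = 0.00143). SCARNA6 stood at 118, 138 and 134 TPM in shEV and at 93.8, 94.0 and 89.4 TPM in shPAX2, again with no overlap. Its log2 fold change was -0.49 (SE 0.07, 95% interval -0.65 to -0.33, adjusted p = 0.000699).

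The ratio of SCARNA5 to SCARNA6 was 1.34, 1.40 and 1.74 in shEV and 0.887, 0.806 and 1.08 in shPAX2. SCARNA5 was the higher of the pair in each shEV library, and the log2 difference was -0.69 (exact permutation p = 0.1). ATG16L1, an autophagy gene, stood at 36.1 ± 2.10 TPM in shEV and 36.9 ± 0.0959 TPM in shPAX2 (log2 fold change 0.03, adjusted p = 0.709). Relative to it, SCARNA5 went from ratios of 4.21 to 6.91 in shEV to 2.05 to 2.62 in shPAX2, and SCARNA6 from 3.14 to 3.96 to 2.43 to 2.55.

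SCARNA12 and SCARNA10 belong to the same mixed class of guides and SCARNA13 is an H/ACA guide. SCARNA12 lies at chr12:7076500-7076769 on the minus strand (hg19), within an annotated exon of PHB2. It stood at 603, 619 and 590 TPM in shEV and at 473, 459 and 458 TPM in shPAX2. Both groups were tight and did not overlap, and the log2 fold change was -0.38 (SE 0.05, 95% interval -0.50 to -0.26, adjusted p = 0.000644). PHB2, which encodes a prohibitin of the mitochondrial inner membrane, had a log2 fold change of -0.06 (adjusted p = 0.470). The ratio of SCARNA12 to PHB2 went from 1.47 to 1.51 in shEV to 1.11 to 1.32 in shPAX2.

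SCARNA10, the highest of the scaRNA members by TPM, was also the most variable. It stood at 741, 972 and 1028 TPM in shEV and at 992, 761 and 585 TPM in shPAX2, with overlapping groups and a log2 fold change of -0.25 (SE 0.24, 95% interval -0.85 to 0.36, adjusted p = 0.446). It was -0.058 without shPAX2 replicate 3, -0.44 without shPAX2 replicate 1, -0.39 without shEV replicate 1, -0.16 without shEV replicate 3 and -0.14 with median-of-ratios scaling, never past the threshold. NCAPD2, a condensin subunit in whose locus SCARNA10 lies, had a log2 fold change of 0.01 (adjusted p = 0.935). SCARNA13 lies at chr14:95999692-95999966 on the minus strand (hg19), within an annotated exon of SNHG10 and opposite GLRX5. It stood at 304, 271 and 285 TPM in shEV and at 285, 275 and 256 TPM in shPAX2, with overlapping groups. Its log2 fold change was -0.08 (95% interval -0.23 to 0.07, adjusted p = 0.376) and had the opposite sign, 0.034, with median-of-ratios scaling. SNHG10, a non-coding host gene, had a log2 fold change of 0.00 (adjusted p = 0.991). Where an RNA lies within an exon of its host, reads could have been assigned to either row.

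**Figure D2:**
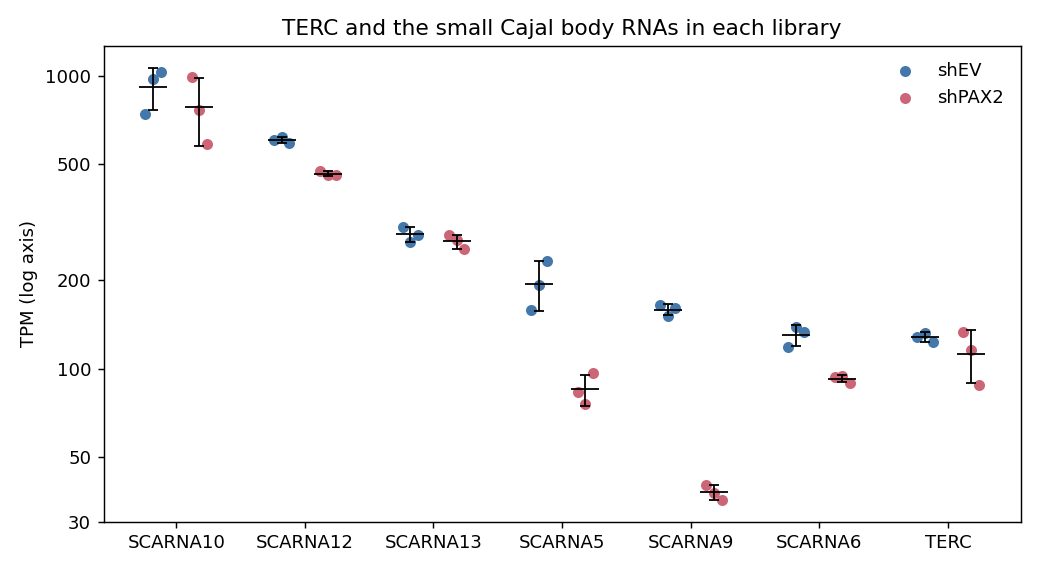
TPM on a log axis of TERC and the 6 scaRNA members, with a point for each library, shEV in blue and shPAX2 in red. Horizontal ticks are group means and vertical bars the SD (n = 3). SCARNA5, SCARNA6, SCARNA9 and SCARNA12 have no overlap between the groups, and SCARNA9 shows the widest gap.

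**Figure D3:**
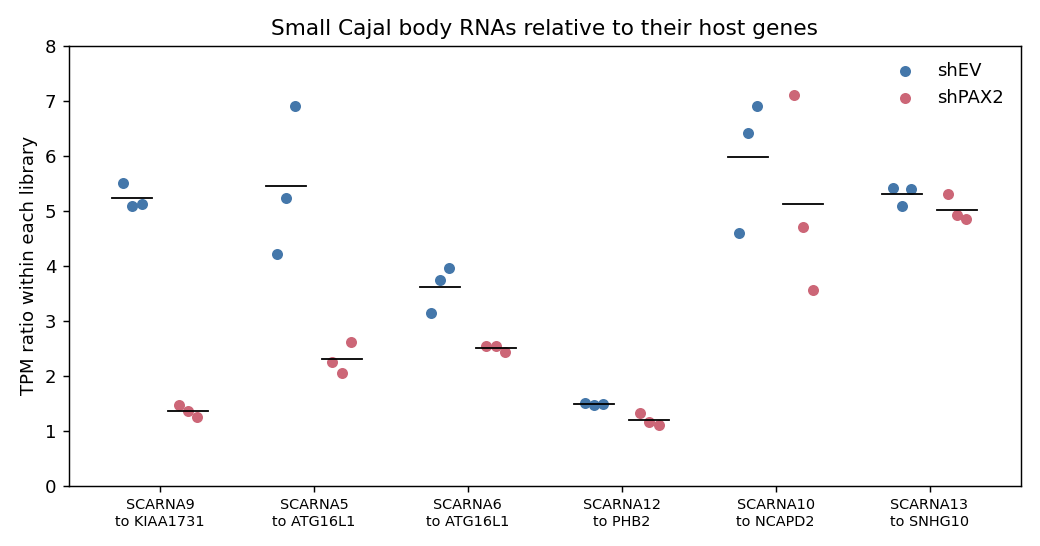
TPM ratio of each scaRNA member to its host gene within each library, shEV in blue and shPAX2 in red, with lines at the means. The ratio to the host separates the groups for SCARNA5, SCARNA6, SCARNA9 and SCARNA12 and overlaps for SCARNA10 and SCARNA13.

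None of the 8 host and neighbour genes listed passed the threshold in limma or voom. In limma 0 of them had an unadjusted p under 0.05, and their log2 fold changes lay between -0.12 and 0.25. The share of all tested genes that passed in limma was 42.8%. The log2 difference of the ratio to the host was -1.95 for SCARNA9, -1.22 for SCARNA5, -0.52 for SCARNA6 and -0.32 for SCARNA12, each with no overlap between groups. It was -0.26 for SCARNA10 and -0.08 for SCARNA13, with overlap.

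**Figure D4:**
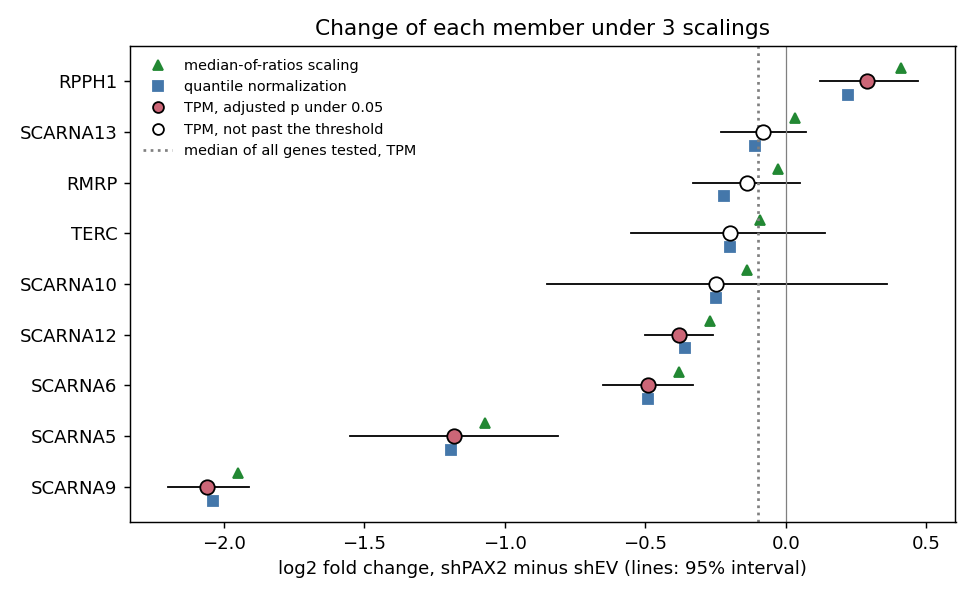
log2 fold change, shPAX2 minus shEV, of each member on the TPM scale (circles, filled where the adjusted p was under 0.05) with its 95% interval, and under 2 other scalings (triangles and squares). SCARNA9 and SCARNA5 lie below -1 under all 3 scalings, RPPH1 is above 0 under all 3, and SCARNA13 changes sign with median-of-ratios scaling.

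The other rows named SCARNA numbered 18. Of these, 5 fell, none rose and 13 did not pass in limma, with a median log2 fold change of -0.40. The count of 5 in 18 is to be read against the 30.5% of all tested genes that were lower. The highest of them, SCARNA15 on chromosome 6, was at 1.76 with means of 2.56 and 9.61 TPM (adjusted p = 0.0509), and voom called it. Those that fell were SCARNA1, SCARNA7, SCARNA9L, SCARNA17 and SCARNA21. SCARNA7, a box C/D guide, fell from 835, 781 and 893 TPM to 193, 194 and 251 TPM (log2 fold change -1.98, adjusted p = 5.55e-06). SCARNA21 fell from 671, 773 and 741 TPM to 377, 396 and 392 TPM (-0.90, adjusted p = 1.87e-05). SCARNA2, a long box C/D guide and the third of these rows by level, stood at 514 ± 53.2 TPM in shEV and 456 ± 31.6 TPM in shPAX2 (-0.17, adjusted p = 0.138). All 24 rows named SCARNA together took 0.487%, 0.540% and 0.542% of the library total in shEV and 0.368%, 0.337% and 0.321% in shPAX2, without overlap. Nucleolar guide RNAs were counted beside them. Of 97 tested rows named SNORA, 10 rose and 8 fell, with a median log2 fold change of 0.07, and of 175 tested rows named SNORD, 14 rose and 12 fell, with a median of 0.09. These counts are to be read against the 12.2% of all tested genes that rose and the 30.5% that fell. How far the reads of these rows allow a call was not tested.

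**Figure D5:**
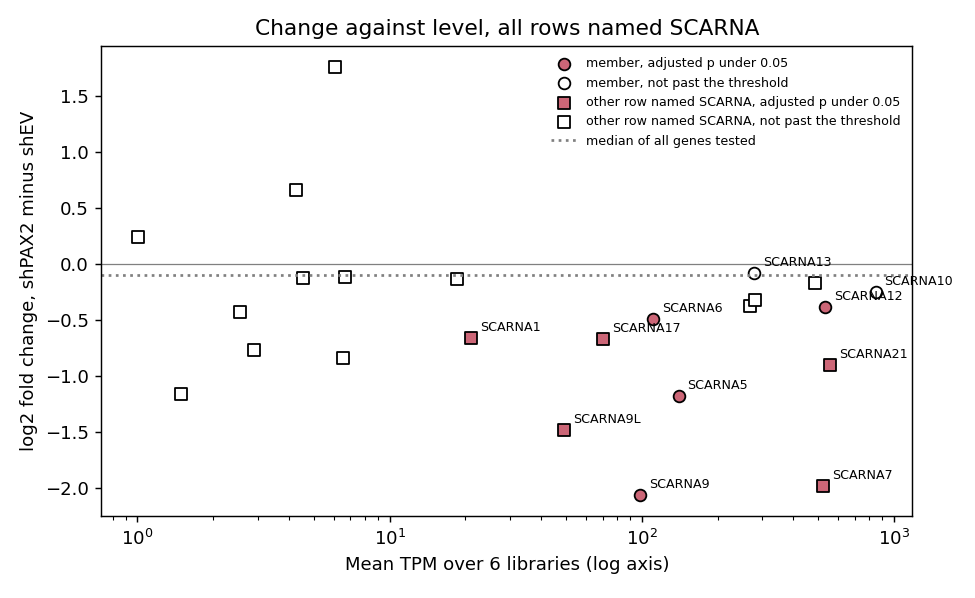
log2 fold change, shPAX2 minus shEV, against mean TPM (log axis) for the 24 rows named SCARNA, members as circles and other rows as squares, filled where the adjusted p was under 0.05. The filled points all lie below 0, and SCARNA9 and SCARNA7 lie lowest among them.

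Proteins that bind box C/D guides or build the Cajal body were tested at 10 rows. Of these, 6 rose and 4 did not pass, with a list median of 0.23. None fell in limma or voom, and 0 lower genes had an unadjusted p under 0.05. Among all tested genes 12.2% rose and 30.5% fell. The number of the list that rose was 3 with a plain eBayes (no trend, not robust) and 8 with median-of-ratios scaling. NOP58, a core protein of box C/D particles, rose from 140 ± 2.41 to 181 ± 17.7 TPM (log2 fold change 0.37, adjusted p = 0.00451). COIL, the coilin that marks the Cajal body, rose from 18.8 ± 1.57 to 23.6 ± 0.323 TPM (log2 fold change 0.32, adjusted p = 0.00700). NOP56, NOLC1, RUVBL1 and RUVBL2 also rose, by 0.19 to 0.26 on the log2 scale. The calls of NOP56, NOLC1 and RUVBL1 were lost, and those of NOP58, COIL and RUVBL2 kept, when replicate 2 or 3 of either group was left out. NOLC1 and RUVBL1 were also lost without shEV replicate 1. FBL, the methyltransferase of these particles, had a log2 fold change of 0.10 (adjusted p = 0.205). SMN1 and SMN2 are near-identical copies, and both stood at -0.08. Their rows carry the same recovered reads in every library, so they are not 2 separate measurements among the 10 rows.

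The genes most like RPPH1 over the 6 libraries, among 10527 others with a mean of at least 5 TPM, were TCFL5 (Pearson r 0.985 on the log2 scale), OLFM2 (0.979) and OARD1 (0.976). Those most like RMRP were GNB5 (0.963), MMP11 (0.963) and BPHL (0.957). The 6 points share their libraries and their group, and these values are a description.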

How the data were processed

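RNA-seq of AN3CA cells was analysed from 3 shEV and 3 shPAX2 libraries. The authors deposited TPM values for 17471 genes. The submitters' processing notes name bcl2fastq, STAR, Subread, featureCounts and edgeR with hg19, and the study's methods, written for another line, give stranded rRNA-depleted single-end 75-base libraries, STAR and RSEM, so the counting tool is uncertain. Within every gene the TPM ratios between libraries were ratios of whole numbers (100.0% of genes, largest relative deviation 7.15e-14), and whole reads were recovered from them. TPM is a share, so abundant RNAs move all others. The median log2 fold change over all genes tested was -0.1023 in the main fit. It was -0.0909 with the total taken without the members and -0.0912 with the total taken without the small RNA rows.

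The filter kept genes that reached 0.5 TPM in 3 or more libraries. Their log2(TPM + 0.5) values were compared with limma 3.58.1 in R 4.3.3 (robust eBayes with a trend), two-sided, with Benjamini-Hochberg adjustment over all 13163 genes. All adjusted p-values are from this fit, and a call is an adjusted p under 0.05. Fold changes of low genes are understated on this scale. The fit and the read recovery were tested on simulated data. Single values were tested with exact two-sided permutation over libraries.

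Positions came from GENCODE release 44 on GRCh37 and sequences from that genome or from RefSeq tables (GRCh38.p14). Symbols were placed for 94.8% of genes. Copies were searched with blastn 2.17.0. Members and gene lists were chosen with earlier results of these data known. Genes named were the members, their hosts and neighbours, at most the 2 highest and 2 lowest called genes of each other list, the 3 highest and the 3 most changed called SCARNA rows, the 3 genes most like RPPH1 and RMRP, and PAX2; FBL, MAF1, POP1, SHQ1, SCARNA15, BRF2, TERT, HEXIM1, HEXIM2, CDK9, NOLC1, RUVBL2, MEPCE, SMN1, SMN2, SCARNA1 and SCARNA17 were named after their values were seen, and the epithelial markers for the check of the label.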

Additional observations from a re-analysis of the deposited data

How the results depend on the processing

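Other pseudocounts, filters, library totals, scalings, a plain eBayes, voom on the recovered reads and leaving out each library were tried. SCARNA5, SCARNA6, SCARNA9 and SCARNA12 kept their direction and their call under all 17 alternatives. With an added log2 fold change threshold of 1, 2 members were called in place of 5. RMRP passed the threshold with quantile normalization (-0.22), which mirrors RPPH1 (0.22) through their swapped order, and was at -0.029 with median-of-ratios scaling. SCARNA13 went to 0.034 with median-of-ratios scaling, which moves all genes up. With each library left out in turn, the log2 fold change lay between 0.23 and 0.35 for RPPH1, whose call was lost without shEV replicate 1 or 3, and between -0.23 and -0.089 for RMRP, which was called without shPAX2 replicate 1. The causes were not tested. The share of all members was 0.748 percentage points higher in shPAX2, and -0.0156 points without shPAX2 replicate 1.

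The calls in the protein and host lists numbered 19, and 27 with median-of-ratios scaling, 22 with quantile normalization and 13 to 28 with a library left out, the most without shPAX2 replicate 1. Of the 19, 17 were kept with median-of-ratios scaling, 16 with quantile normalization and 13 to 18 with a library left out. NHP2, POP4 and POLR3K were among the calls lost without shEV replicate 2, and without shEV replicate 3 the same genes were lost.

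The labels number the replicates in both groups. Deviations from the group means correlated between same-numbered libraries at -0.0523, 0.0815 and 0.0014. This check cannot show whether same-numbered libraries were handled together, and the labels give only the number. With the number as a replicate block, 5 members were called as before and 15 list genes in place of 19, and the log2 fold changes of RPPH1 (0.29), RMRP (-0.14), SCARNA9 (-2.06) and SCARNA5 (-1.18) stayed the same.

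SCARNA9, SCARNA5 and SCARNA6 rest on 123 to 585 reads a library, and the neighbour gene ACTRT3 on 22 to 77. The reads carry no molecular identifiers.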
